A study of Drosophila melanogaster with 16 samples.

Results

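The Enhancer of split, E(spl), and Bearded, Brd, gene families were followed in the female Drosophila midgut on Affymetrix arrays. The members were 10 genes of these families, and a probe set belonged to the group if its only symbol in the probe annotation was one of them. Every gene had 1 such probe set, which gave 10 of the 18769 probe sets tested and 10 of the 11982 genes with a probe set of their own, 4 of the bHLH type and 6 of the Bearded type. The 10 symbols were found under the same gene IDs in RefSeq (Release 6 plus ISO1 MT). The bHLH genes were E(spl)m3-HLH, E(spl)mbeta-HLH, E(spl)m7-HLH and E(spl)m5-HLH. The Bearded genes were E(spl)malpha-BFM, E(spl)m2-BFM, E(spl)m4-BFM, E(spl)m6-BFM, Brd and BobA.

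Notch is a receptor whose intracellular domain, once released by cleavage, enters the nucleus and joins the DNA-binding protein Su(H) to switch on target genes, the E(spl) genes among them in many fly tissues. The E(spl) bHLH proteins are transcriptional repressors that recruit the co-repressor Groucho, while proteins of the Bearded family bind Neuralized, a ubiquitin ligase of Notch ligands, and restrain it. In the fly midgut, Delta on intestinal stem cells signals through Notch to daughter cells, and strong Notch signalling in a daughter directs it towards the enterocyte fate.

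The study has 16 arrays in 4 groups of 4, each from midguts of female flies. RafGOF NotchIC flies carried overexpressed Raf kinase in a gain-of-function version together with the overexpressed intracellular domain of Notch. RafGOF NotchDN flies carried the same Raf version with a dominant-negative Notch, RafGOF flies the Raf version alone, and WT flies were wild type. The sources used here do not give the driver of the transgenes, the cells it acts in, the age of the flies or the time of induction. No probe set carries the symbol of Raf or of Notch alone, so neither manipulated gene was checked.

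Signals are given as log2 values from RMA, so that a difference of 1 is a 2-fold change. A low RMA signal carries no detection call, so a gene at the bottom of the scale may be silent or merely below what the probes resolve. Differences were tested with limma over all probe sets, with the Benjamini-Hochberg adjustment over the whole array, and passed at an adjusted p under 0.05. The reported fit treated the arrays as unpaired. The replicate number of the labels entered as a block only in an alternative. Nothing in the labels says that the arrays of a group came from separate animals or pools. A p-value here therefore sets a difference only against array-to-array spread, which may be technical. Median signals lay between 5.47 and 5.69 on the 16 arrays, and arrays of one group correlated at 0.979 to 0.995. After each group's mean was removed, 1 component held 34.1% of the variance and scored 0.41 to 0.44 on the 4 arrays numbered 2 and below 0 on all others. A call that was lost without those 4 arrays is given with its value.

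The members' signals ranged from strong to near the lower end of the scale. E(spl)m3-HLH, E(spl)mbeta-HLH and the Bearded gene E(spl)malpha-BFM had signals from 6.37 up to 11.09 on all arrays, within the 60.4th to 96.2nd percentile of the probe sets of their array. E(spl)m7-HLH lay between 5.68 and 7.08, just above the array medians. The other 6 members, called dim below, lay below the median on every array. E(spl)m5-HLH came nearest to it, at the 35.8th to 48.9th percentile. Of these 6, E(spl)m6-BFM and BobA were the dimmest, at 3.16 to 3.75 and 3.31 to 3.70. A second probe set that BobA shares with the neighbouring gene CG13465, and which is therefore no member, averaged 3.33 to 3.40 by group.

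RafGOF was set against WT to see which members differ in midguts with active Raf. E(spl)m3-HLH, a bHLH repressor, rose most, followed by the Bearded family gene E(spl)malpha-BFM and the bHLH repressor gene E(spl)mbeta-HLH. Of the 10 members, 3 rose, 1 fell by a small amount and 6 did not pass. Over all probe sets 19.1% passed, 11.2% upwards and 7.85% downwards. The members' median difference was 0.03, against -0.02 over all probe sets. The groups did not overlap for 4 members, as held for 20.8% of all probe sets.

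E(spl)m3-HLH had signals of 10.58, 11.09, 11.03 and 10.51 in RafGOF midguts, against 7.88, 7.18, 7.67 and 6.92 in WT midguts. Every RafGOF array lay above every WT array by more than 2 log2 units. The group means were 10.80 ± 0.30 in RafGOF and 7.41 ± 0.44 in WT (SD, n = 4 each), a difference of 3.39 ± 0.25 (SE) or 10.5-fold, with a limma adjusted p of 4.55e-07. E(spl)malpha-BFM had 8.65, 8.64, 8.73 and 8.58 in RafGOF midguts, against 7.09, 6.71, 7.19 and 6.37 in WT midguts. The 4 RafGOF arrays were nearly level, with an SD of 0.06, and stood clear of the more scattered WT arrays (SD 0.37). Its difference was 1.81 ± 0.24 (SE), 3.51-fold, with a limma adjusted p of 7.55e-05. E(spl)mbeta-HLH had 9.04, 8.92, 9.02 and 9.31 in RafGOF midguts, against 8.14, 7.61, 7.97 and 7.60 in WT midguts. These groups did not overlap either. The difference was 1.24 ± 0.18 (SE), 2.36-fold, with a limma adjusted p of 0.000144.

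E(spl)m6-BFM had 3.39, 3.27, 3.40 and 3.16 in RafGOF midguts, against 3.52, 3.51, 3.75 and 3.57 in WT midguts. Its fall of -0.28 ± 0.09 (SE) had a limma adjusted p of 0.0479, at a signal between the 1.59th and 9.45th percentile of its arrays. The call was lost without the arrays numbered 2 (adjusted p = 0.0929) and in 7 of the 8 fits that left out 1 array (up to 0.152), among them each of the 4 WT arrays in turn and RafGOF replicates 2, 3 and 4. Without any of those arrays the count of members called was 3. The 6 members that did not pass had differences of -0.14 to 0.13. For the bHLH genes E(spl)m7-HLH and E(spl)m5-HLH the 95% intervals of the difference ran from -0.27 to 0.52 and from -0.38 to 0.26. Those of the Bearded genes E(spl)m2-BFM, E(spl)m4-BFM, Brd and BobA all lay between -0.49 and 0.42.

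**Figure D1:**
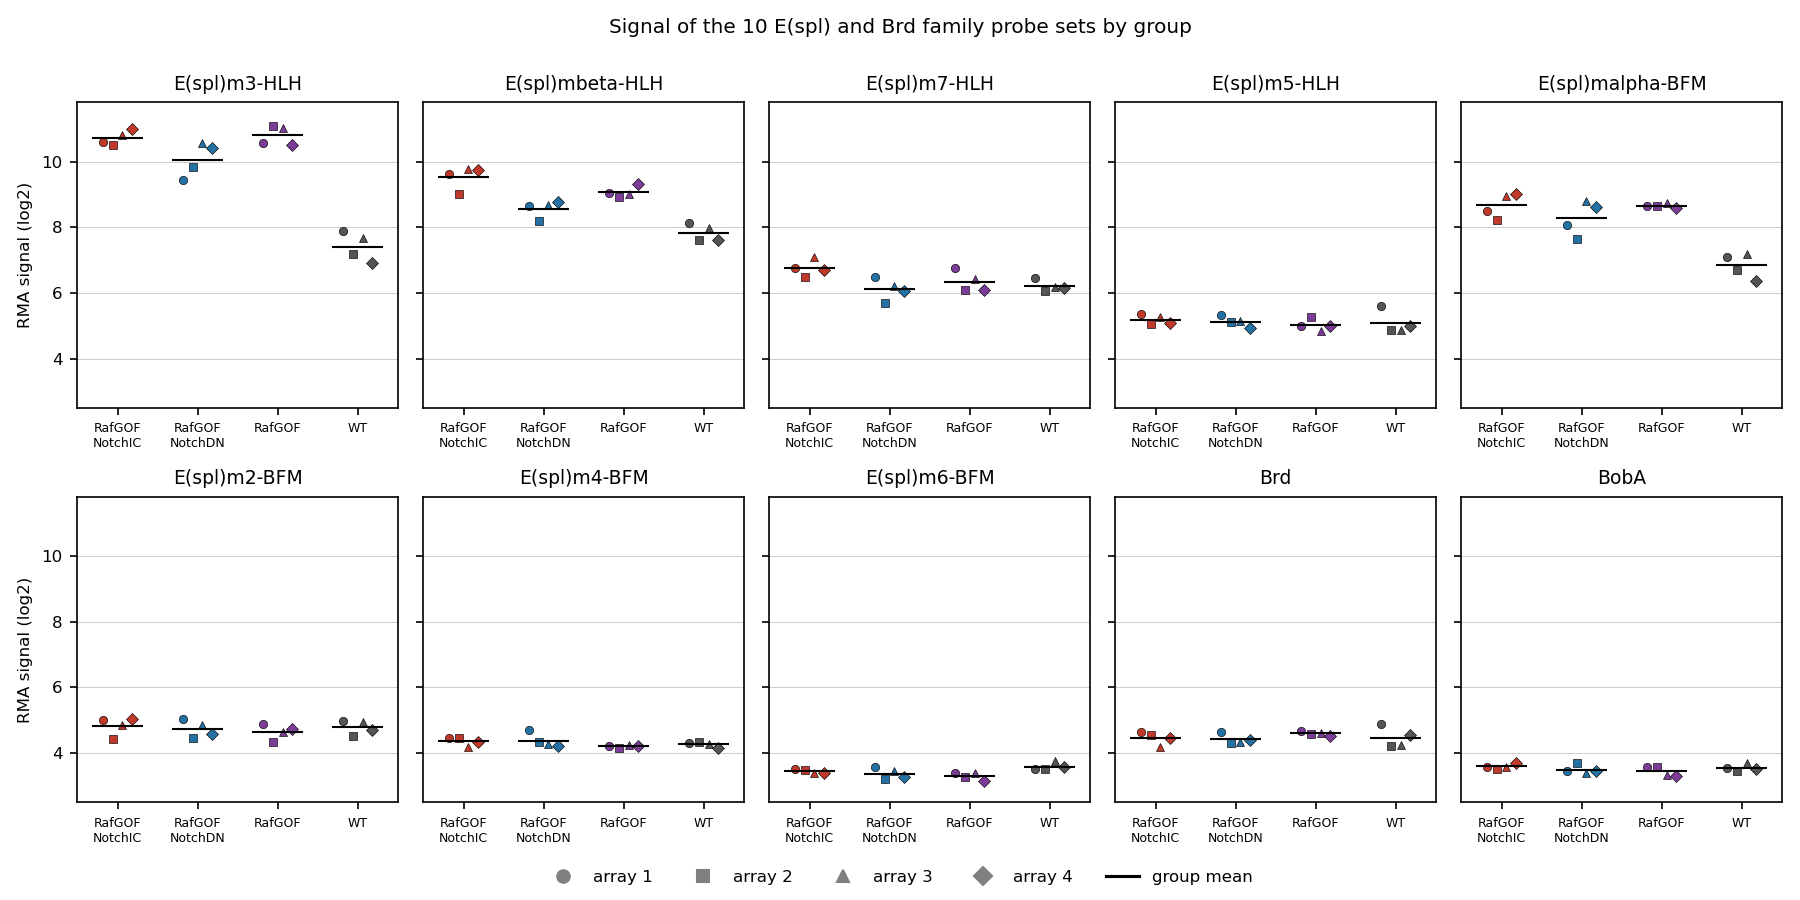
RMA signal (log2, vertical axis) of each member's probe set on the 16 arrays, with one marker shape per array number and a bar at the group mean. E(spl)m3-HLH, E(spl)mbeta-HLH and E(spl)malpha-BFM lay higher in all 3 Raf groups than in WT, with no overlap, while the dim members stayed below the array medians in every group.

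The same 3 genes were higher than in WT when either Notch construct was added to RafGOF. These comparisons share the WT arrays with the one above, so their results are not independent of it. In RafGOF NotchDN against WT, 3 members rose and 0 fell by limma, where 20.4% of all probe sets passed, 11.2% upwards. An unadjusted p under 0.05 was found for 4 members and 28.9% of all probe sets, and groups that did not overlap for 3 members and 21.2% of all. E(spl)m3-HLH differed by 2.65 ± 0.25 (SE, adjusted p = 1.56e-06), E(spl)malpha-BFM by 1.45 ± 0.24 (SE, adjusted p = 0.000362) and E(spl)mbeta-HLH by 0.74 ± 0.18 (SE, adjusted p = 0.00709). In RafGOF NotchIC against WT, 3 members rose and 0 fell by limma, where 12.7% of all probe sets passed, 7.5% upwards. Here 4 members and 25.1% of all probe sets had an unadjusted p under 0.05, and the groups did not overlap for 4 members and 17.1% of all. Here E(spl)m3-HLH differed by 3.32 (adjusted p = 1.11e-06), E(spl)malpha-BFM by 1.82 (adjusted p = 0.000176) and E(spl)mbeta-HLH by 1.70 (adjusted p = 2.5e-05). E(spl)m7-HLH was 0.54 higher in RafGOF NotchIC than in WT, with no overlap of the groups, but did not pass (adjusted p = 0.0682). It passed in 4 of the 15 alternatives, among them the fit of the 2 groups alone (0.0319) and the shift of all arrays to 1 median (0.0321).

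RafGOF NotchDN was compared with RafGOF to ask what blocking Notch does to the family in a Raf midgut. None of the 10 members passed by limma, and 2 had an unadjusted p under 0.05. Of all probe sets 1.09% passed, and 8.57% had an unadjusted p under 0.05. E(spl)m3-HLH had 9.45, 9.82, 10.55 and 10.41 in RafGOF NotchDN midguts, with means of 10.06 ± 0.51 there and 10.80 ± 0.30 in RafGOF (SD, n = 4 each). The arrays numbered 1 and 2 were the low ones in RafGOF NotchDN, and the 2 groups overlapped. The difference was -0.74, with a 95% interval of -1.27 to -0.22 and a limma adjusted p of 0.258. E(spl)malpha-BFM had 8.07, 7.64, 8.81 and 8.62 in RafGOF NotchDN midguts, and again the arrays numbered 1 and 2 were the low ones. Its difference was -0.37, with an interval of -0.88 to 0.15 and a limma adjusted p of 0.839.

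E(spl)mbeta-HLH had 8.66, 8.19, 8.67 and 8.76 in RafGOF NotchDN midguts, and all of these lay below the 4 RafGOF arrays. The groups of 1 member thus did not overlap, as held for 4.09% of all probe sets. The difference was -0.50, with an interval of -0.89 to -0.12 and a limma adjusted p of 0.319. With the replicate number of the labels as a block the limma adjusted p was 0.0415, so the call depends on whether arrays of the same number are taken as pairs. The block raised the share of all probe sets that passed to 4.22%. The remaining 7 members had differences of -0.23 to 0.17 with adjusted p of 0.796 to 0.993 by limma.

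RafGOF NotchIC was compared with RafGOF to ask what active Notch adds. Again none of the 10 members passed by limma, and 2 had an unadjusted p under 0.05, where 2.34% of all probe sets passed and 11.7% had such a p. The groups overlapped for all 10, and did not for 6.46% of all probe sets. E(spl)m3-HLH had 10.59, 10.50, 10.82 and 11.004 in RafGOF NotchIC midguts, which overlapped the RafGOF arrays. The difference was -0.07 with an interval of -0.60 to 0.46. E(spl)malpha-BFM had 8.48, 8.23, 8.94 and 9.004 in RafGOF NotchIC midguts, a difference of 0.01 with an interval of -0.50 to 0.53. Both intervals hold changes of either sign.

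E(spl)mbeta-HLH had 9.62, 8.999, 9.79 and 9.74 in RafGOF NotchIC midguts. The array numbered 2 was the low one and fell within the RafGOF range, while the other 3 lay above it. The difference was 0.46, with an interval of 0.08 to 0.84 and a limma adjusted p of 0.287. E(spl)m7-HLH had 6.75, 6.49, 7.08 and 6.71 in RafGOF NotchIC midguts, against 6.77, 6.09, 6.43 and 6.07 in RafGOF midguts. Its difference was 0.42, with an interval of 0.02 to 0.81 and a limma adjusted p of 0.38. With the replicate number as a block both genes passed, at limma adjusted p of 0.0466 for E(spl)mbeta-HLH and 0.0465 for E(spl)m7-HLH, and so did 6.56% of all probe sets. The other 6 members, which have the weakest signals, differed by -0.13 to 0.19 and did not pass.

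RafGOF NotchIC was then set directly against RafGOF NotchDN, the contrast between active and blocked Notch in the presence of active Raf. Of the 10 members, 2 rose and 0 fell by limma, both of them bHLH repressor genes, and 3 had an unadjusted p under 0.05. Of all probe sets 8.72% passed, 4.09% upwards, and 19.8% had an unadjusted p under 0.05. The members' median difference was 0.10, against -0.02 over all probe sets. E(spl)mbeta-HLH averaged 9.54 ± 0.37 in RafGOF NotchIC and 8.57 ± 0.26 in RafGOF NotchDN (SD, n = 4 each), with every RafGOF NotchIC array above every RafGOF NotchDN array. The groups of 12.1% of all probe sets did not overlap, and those of no other member. The difference was 0.96 ± 0.18 (SE), 1.95-fold, with a limma adjusted p of 0.00293. It kept this call when the arrays numbered 2 were left out (adjusted p = 0.000946) and when any single array of the 2 groups was left out (up to 0.0137).

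E(spl)m7-HLH had 6.75, 6.49, 7.08 and 6.71 in RafGOF NotchIC midguts, against 6.497, 5.68, 6.20 and 6.06 in RafGOF NotchDN midguts. The groups met at the edge, since the lowest RafGOF NotchIC array lay just under the highest RafGOF NotchDN array. The difference was 0.65 ± 0.19 (SE), 1.57-fold, with a limma adjusted p of 0.0395. This call was lost without the arrays numbered 2 (adjusted p = 0.0731), and it was lost in 6 of the 8 fits that left out 1 array (up to 0.135). Without RafGOF NotchDN replicate 2, 3 or 4, or RafGOF NotchIC replicate 1, 3 or 4, the count of members called was thus 1. E(spl)m3-HLH was 0.67 higher in RafGOF NotchIC, with an interval of 0.14 to 1.20, but did not pass (adjusted p = 0.123). E(spl)malpha-BFM was at 0.38, with an interval of -0.14 to 0.89 (adjusted p = 0.445). E(spl)m5-HLH and the 5 dim Bearded genes differed by -0.01 to 0.10.

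**Figure D2:**
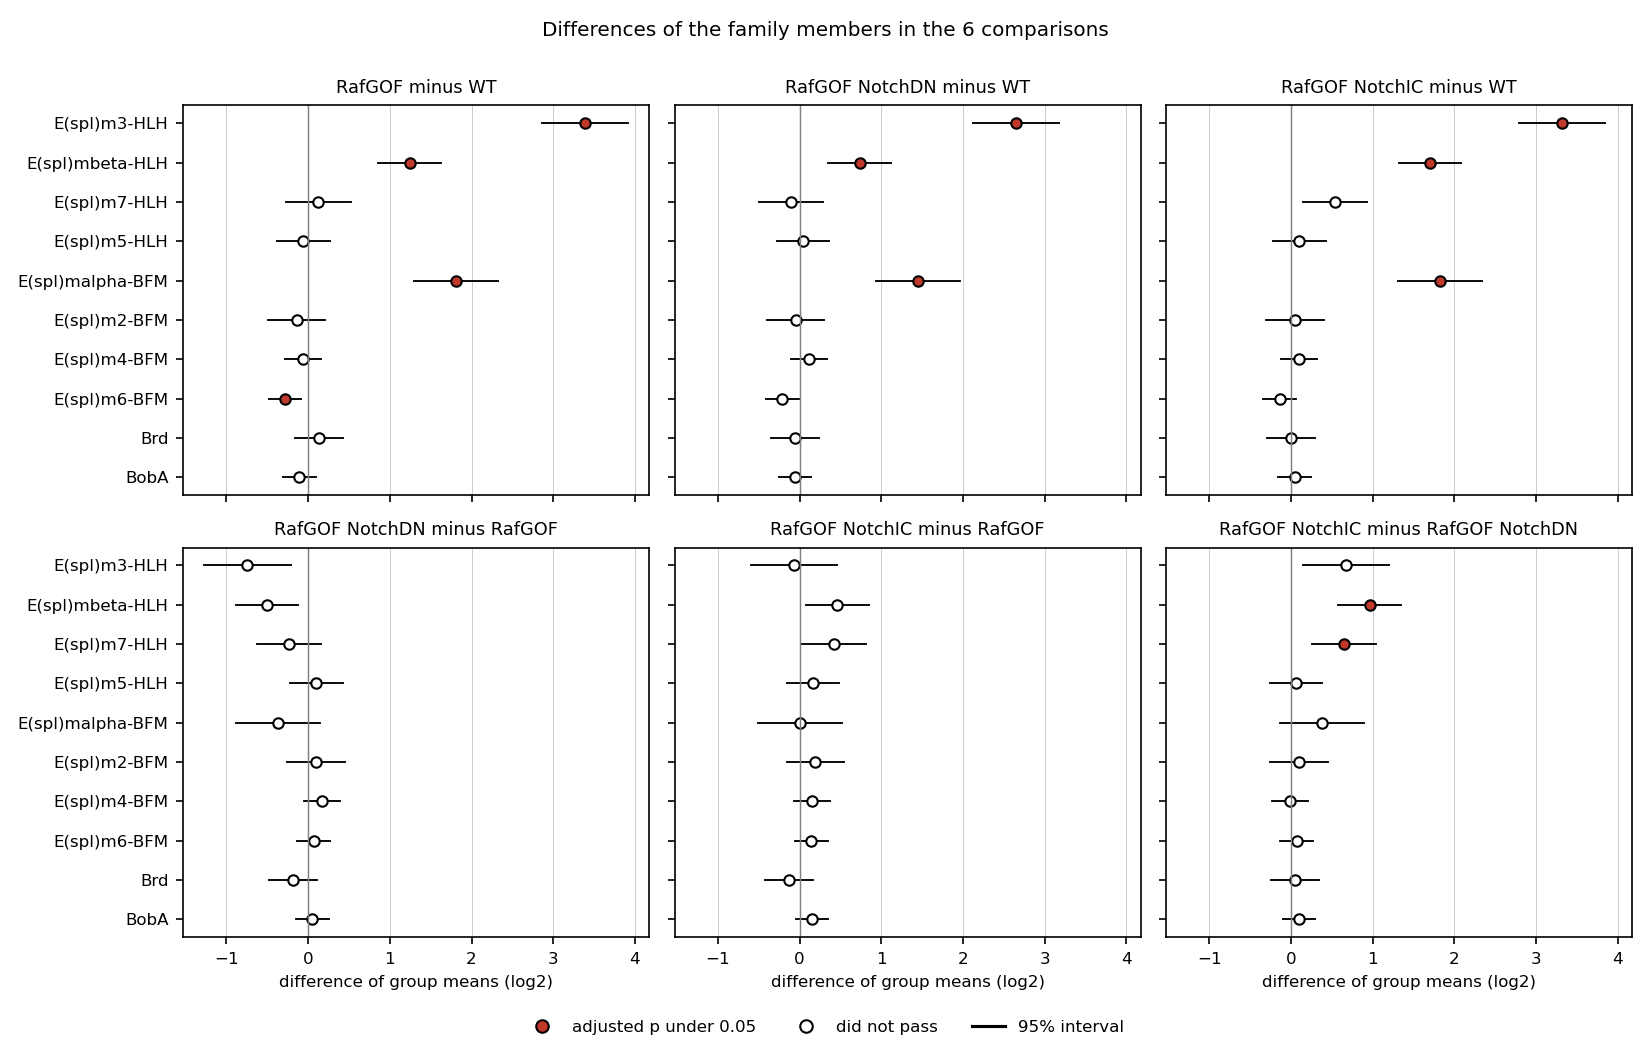
Difference of group means (log2, horizontal axis) for the 10 members in the 6 comparisons, as points with 95% intervals, filled where the limma adjusted p is under 0.05. The filled points sit on E(spl)m3-HLH, E(spl)mbeta-HLH and also E(spl)malpha-BFM in all 3 comparisons with WT, and on E(spl)mbeta-HLH and E(spl)m7-HLH between the Notch groups. E(spl)m6-BFM is the other filled point, in RafGOF against WT.

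The order of the group means differed from member to member. E(spl)mbeta-HLH ran from RafGOF NotchIC (9.54) over RafGOF (9.07) and RafGOF NotchDN (8.57) to WT (7.83). In that order only RafGOF NotchDN and WT were neighbours that passed without the replicate block, and with it all 3 steps passed. E(spl)m3-HLH ran from RafGOF (10.80) over RafGOF NotchIC (10.73) and RafGOF NotchDN (10.06) to WT (7.41), and E(spl)malpha-BFM from RafGOF NotchIC (8.66) over RafGOF (8.65) and RafGOF NotchDN (8.29) to WT (6.84). In both, no difference among the 3 Raf groups passed and only the step to WT did, with or without the block. E(spl)m7-HLH ran from RafGOF NotchIC (6.76) over RafGOF (6.34) and WT (6.21) to RafGOF NotchDN (6.11), with no neighbours that passed without the block and 1 step, RafGOF NotchIC to RafGOF, that passed with it. In the other 6 members the 4 group means spanned at most 0.28.

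**Figure D3:**
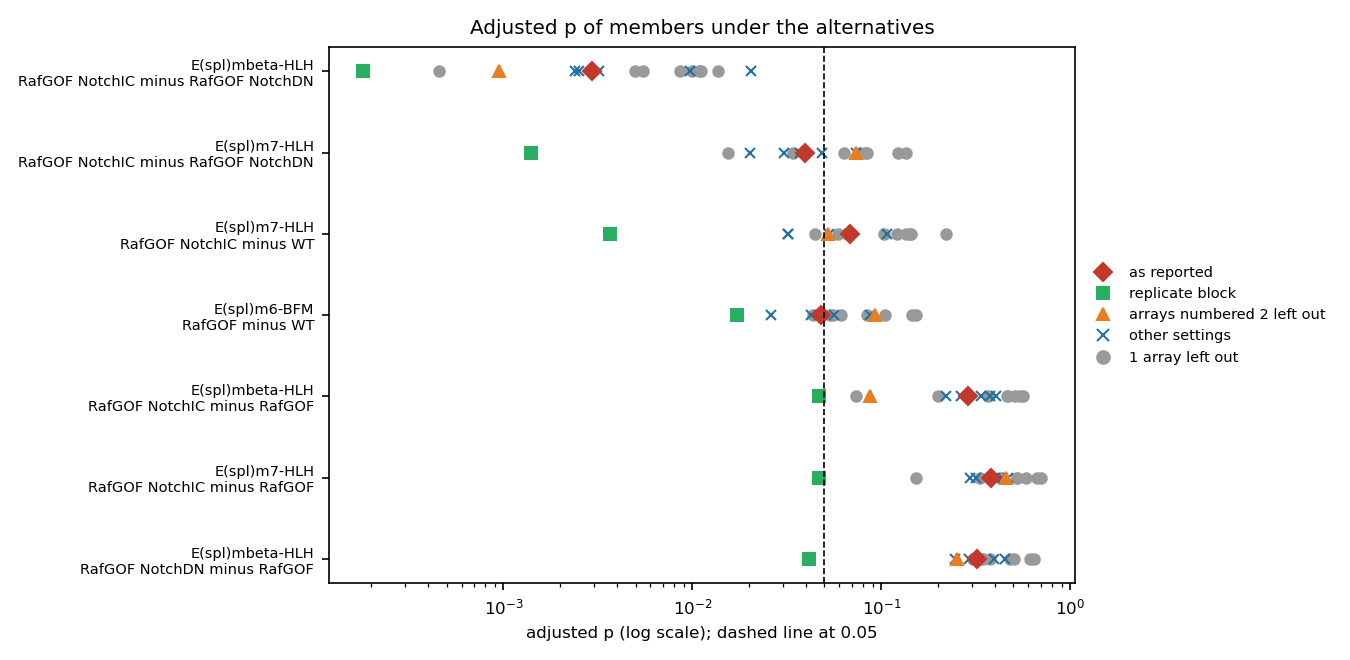
Limma adjusted p (horizontal axis, log scale, dashed line at 0.05) of E(spl)mbeta-HLH, E(spl)m7-HLH and E(spl)m6-BFM in the comparisons shown, as reported and under each alternative. E(spl)mbeta-HLH stayed left of the line between the Notch groups in all 15 alternatives, whereas the points of E(spl)m7-HLH and E(spl)m6-BFM lie on both sides.

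In the RefSeq gene order of chromosome 3R the E(spl) complex runs from E(spl)mdelta-HLH to gro. E(spl)mbeta-HLH and E(spl)malpha-BFM are adjacent protein-coding genes there, and Kaz-m1 and E(spl)m2-BFM lie between them and E(spl)m3-HLH. Neither gene in between passed in that comparison. In RafGOF against WT, E(spl)m2-BFM differed by -0.14 (adjusted p = 0.655), and Kaz-m1, which encodes a Kazal-type protease inhibitor and has a strong signal, by 0.08 (adjusted p = 0.763). The bHLH gene E(spl)mdelta-HLH, at the start of the complex, was at 3.67 ± 0.05 in RafGOF and 3.52 ± 0.07 in WT (SD, n = 4 each), a difference of 0.14 that did not pass (adjusted p = 0.254). E(spl)mgamma-HLH and E(spl)m8-HLH were not analysed here. On chromosome 3L the Bearded genes Tom and Ocho flank Brd. Tom differed by -0.09 (adjusted p = 0.595) and Ocho by -0.05 (adjusted p = 0.824) in RafGOF against WT, and neither passed in any of the 6 comparisons.

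Between RafGOF NotchIC and RafGOF NotchDN, Kaz-m1 was higher by 0.51 (adjusted p = 0.031) and gro, the gene of the co-repressor Groucho, was lower by -0.48 (adjusted p = 0.0391). Each of these calls was lost in 9 of the 15 alternatives. The groups overlapped for both genes. Against WT, gro was 0.53 higher in RafGOF NotchDN (limma adjusted p = 0.0103), with no overlap of the groups. That call held in all 15 alternatives.

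Genes of the Notch pathway itself were read from lists, on the probe set with the highest mean per gene. In RafGOF against WT 19.1% of all probe sets passed, 11.2% upwards and 7.85% downwards. Delta, the Notch ligand of the stem cells, had 7.55, 7.90, 8.23 and 7.98 in RafGOF midguts, against 6.98, 6.63, 6.85 and 6.60 in WT midguts. It rose by 1.15 (adjusted p = 0.0194, and 0.000202 on its second probe set, which rose by 1.78). The call of the first probe set was lost in 3 of the 15 alternatives, 1 of them without the arrays numbered 2 (adjusted p = 0.0514). Of the 3 ligand and endocytosis genes measured, Delta was the one that passed. Of the 8 genes of receptor cleavage and glycosylation 6 rose and 0 fell by limma in RafGOF against WT, with a median of 0.997, against -0.00316 over all genes. They were led by fng, a glycosyltransferase of Notch (2.23), O-fut1, which fucosylates Notch (2.13), the metalloprotease gene kuz (1.20) and the furin gene Fur2 (1.06). The call of kuz was lost in 6 of the 15 alternatives. Of the 6 nuclear complex and co-repressor genes, CtBP rose (0.62) and Smr fell (-0.62), and of the 8 trafficking genes and antagonists AP-2alpha rose (0.81). The calls of CtBP and Smr were lost in 6 and 7 of the alternatives. H, the gene of the Su(H) antagonist Hairless, was at -0.22 (adjusted p = 0.686), and at 0.21 on its second probe set (adjusted p = 0.598). In RafGOF NotchDN against WT this second probe set was 0.67 higher (limma adjusted p = 0.041). The first was at -0.18 there (adjusted p = 0.774), so the probe sets of H disagree. The difference of numb, a Notch inhibitor, was -0.39, with an adjusted p of 0.118 that became 0.0145 in the fit with the replicate block. Of the 10 proneural bHLH genes and their antagonists, sc (0.96) and emc (0.51) rose and tap fell (-0.75). The signal of tap lay below the array median on all arrays. It is also in the enteroendocrine marker list, so its fall is counted again there.

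Delta and the proneural factor gene sc moved opposite to E(spl)mbeta-HLH between the Notch groups. Delta had 7.23, 6.27, 6.92 and 7.40 in RafGOF NotchIC midguts, against 8.32, 8.73, 10.02 and 9.81 in RafGOF NotchDN midguts. It was lower by -2.27 ± 0.32 (SE, adjusted p = 0.00034) with no overlap. The signal of sc averaged 5.17 ± 0.19 in RafGOF NotchIC and 7.56 ± 0.62 in RafGOF NotchDN (SD, n = 4 each), a difference of -2.39 (adjusted p = 5.3e-06). O-fut1 (-1.77), spdo, which controls Notch trafficking in asymmetric divisions (-1.51), neur, the gene of Neuralized (-0.99), rumi, a glucosyltransferase of Notch (-0.94) and sno (-0.44) were lower too. The calls of neur and sno were lost in 6 and 7 of the 15 alternatives. In all, 2 of 3 ligand and endocytosis genes, 2 of 8 receptor processing genes, 1 of 6 nuclear complex genes and 2 of 8 trafficking genes and antagonists fell and 0 rose by limma. Of the 10 proneural bHLH genes and their antagonists, sc fell and emc, an inhibitor of proneural proteins, rose (0.47). Over all probe sets 8.72% passed between these groups, 4.09% upwards.

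Among 13 candidate Notch targets and progenitor regulators, klu, a zinc finger gene of enteroblasts, moved with E(spl)mbeta-HLH. It had 7.53, 7.59, 7.75 and 8.01 in RafGOF NotchIC midguts, against 6.55, 6.24, 6.91 and 6.84 in RafGOF NotchDN midguts, a difference of 1.09 ± 0.18 (SE, adjusted p = 0.000963). A dimmer second probe set of klu was at -0.04 (adjusted p = 0.88), so the probe sets disagree. In the same comparison nvy was higher (0.55) and CycE, a driver of S phase, lower (-1.27), and the other 10 genes did not pass. The call of nvy was lost in 8 of the 15 alternatives. In RafGOF against WT 5 of the 13 rose and 2 fell, led by edl (2.56), CycE (2.51), Sox100B (2.27) and ct (-2.18), with klu at 0.69 (adjusted p = 0.0108). The second klu probe set was at -0.10 there (limma adjusted p = 0.623). Over all probe sets 19.1% passed in RafGOF against WT and 8.72% between the Notch groups.

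In the 2 comparisons of a Notch construct with RafGOF alone, few of these genes passed. Over all probe sets 1.09% passed for NotchDN, where 8.57% had an unadjusted p under 0.05, and 2.34% passed for NotchIC. Against RafGOF, NotchDN midguts had rumi (0.85), spdo (1.12) and sc (1.35) higher, and 0 of the 13 candidate targets passed by limma (1 at an unadjusted p under 0.05). The first Delta probe set was 1.31 higher there, with an adjusted p of 0.0747 (0.0174 once the replicate block was added), and the second 1.55 higher (0.00944). NotchIC midguts had O-fut1 (-1.16) and sc (-1.04) lower and nvy (0.66) higher than RafGOF. The first Delta probe set was at -0.96 in NotchIC against RafGOF and did not pass (limma adjusted p = 0.177). The second was at -1.51 and passed (limma adjusted p = 0.00711). On both, every NotchIC array lay below every RafGOF array. In that comparison klu was 0.66 higher, with an adjusted p of 0.0683 that became 0.00448 under the replicate block. The second klu probe set was at -0.01 (limma adjusted p = 0.995). The call of nvy was lost in 10 of the 15 alternatives, that of rumi in 6 and that of sc against NotchIC in 5.

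**Figure D4:**
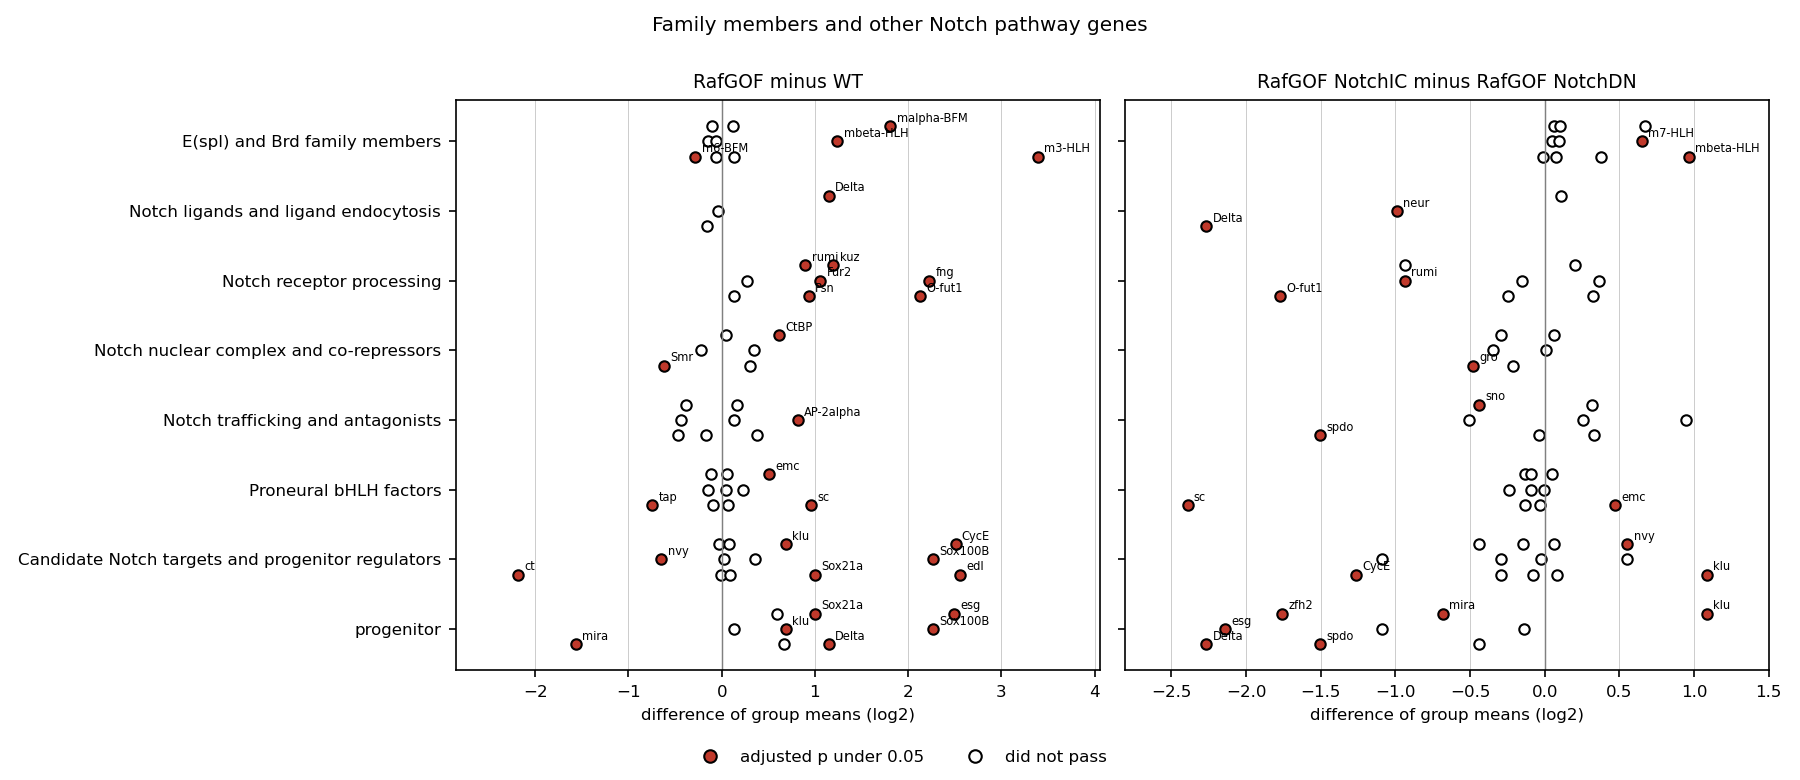
Difference of group means (log2, horizontal axis) for the family members and the listed Notch pathway, target and progenitor genes, 1 point per gene, filled and named where the limma adjusted p is under 0.05. In RafGOF against WT (left) the receptor processing genes lie to the right of 0 together with E(spl)m3-HLH, E(spl)mbeta-HLH and E(spl)malpha-BFM. Between the Notch groups (right) E(spl)mbeta-HLH, E(spl)m7-HLH and klu lie to the right and Delta, esg and sc to the left.

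Markers of midgut cell types moved in the same comparisons, and in bulk tissue a change in the number of cells of a type and in RNA per cell cannot be told apart. The 9 progenitor markers averaged 6.85 to 7.03 per array in RafGOF NotchIC, 7.48 to 8.22 in RafGOF NotchDN, 7.15 to 7.68 in RafGOF and 6.48 to 6.75 in WT. In RafGOF against WT 5 of them rose and 1 fell, and the transcription factor gene esg of stem cells and enteroblasts rose by 2.49 (adjusted p = 4.35e-05). Their part in the rises of E(spl)m3-HLH, E(spl)mbeta-HLH and E(spl)malpha-BFM was not tested. Between RafGOF NotchIC and RafGOF NotchDN 5 of the 9 fell and 1, klu, rose, and esg fell by 2.14 (adjusted p = 0.000403). Over all probe sets 8.72% passed between these groups and 19.1% in RafGOF against WT. The call of mira, 1 of the 5, was lost in 11 of the 15 alternatives. In that comparison E(spl)mbeta-HLH and E(spl)m7-HLH moved opposite to those 5 markers. Delta, spdo, klu and Sox100B of the progenitor list are also in the pathway and target lists above, so these counts overlap. Against RafGOF, esg was lower in RafGOF NotchIC (-1.26, limma adjusted p = 0.0474), a call lost in 8 of the 15 alternatives. In RafGOF NotchDN esg was 0.89 higher and did not pass (0.305), while zfh2 (1.21) and spdo (1.12) passed. The calls of zfh2 and spdo were lost in 2 and 1 of the alternatives. Among the progenitor markers mira was below the array median on all arrays of the 3 Raf groups, and zfh2 on all arrays of RafGOF NotchIC, RafGOF and WT.

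Of the other marker lists, in RafGOF against WT 2 of 11 enterocyte genes rose and 5 fell, 6 of 14 enteroendocrine genes fell, 1 of 11 visceral muscle genes rose and 6 fell, and 7 of 11 Malpighian tubule genes fell. In that comparison 1 of 12 hemocyte, 2 of 8 trachea and 1 of 8 fat body genes fell, 1 of 17 ovary and germline genes rose, and 0 of 9 neuron genes passed by limma (1 at an unadjusted p under 0.05). Over all probe sets 19.1% passed there, 11.2% upwards and 7.85% downwards. At least 1 alternative ended 4 of the 7 enterocyte calls there, 3 of the 7 visceral muscle calls, 3 of the 7 Malpighian tubule calls and 1 of the 6 enteroendocrine calls. The visceral muscle list averaged 8.98 to 9.43 per array in RafGOF and 9.45 to 9.76 in WT, and the Malpighian tubule list 7.76 to 8.10 in RafGOF and 8.44 to 9.09 in WT. Between RafGOF NotchIC and RafGOF NotchDN, 1 of 11 enterocyte genes rose and 1 fell, 1 of 14 enteroendocrine genes fell, 1 of 11 visceral muscle, 2 of 11 Malpighian tubule and 1 of 8 trachea genes rose, and 1 of 17 ovary and germline genes fell. The hemocyte, fat body and neuron lists had 0 genes that passed by limma there, with 4, 2 and 1 at an unadjusted p under 0.05. Over all probe sets 8.72% passed and 19.8% had an unadjusted p under 0.05. Few of these calls between the Notch groups were stable: both enterocyte calls, both Malpighian tubule calls and those of visceral muscle and trachea were each lost in 6 to 10 of the 15 alternatives. The visceral muscle list averaged 9.13 to 9.42 per array in RafGOF NotchIC and 8.71 to 8.90 in RafGOF NotchDN, and the Malpighian tubule list 8.17 to 9.03 in RafGOF NotchIC and 7.68 to 8.12 in RafGOF NotchDN. Neither list's array means overlapped between these groups, and the same held for 3 further lists. Hemocyte averaged 5.95 to 6.08 in RafGOF NotchIC against 5.77 to 5.91 in RafGOF NotchDN, and trachea 6.03 to 6.20 against 5.76 to 6.02. Ovary and germline went the other way, with 5.16 to 5.35 against 5.39 to 5.53. The part of these tissues in the members' differences was not tested.

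The genes whose signal most resembled that of a called member over the 16 arrays were ranked by Pearson's r, as a description in which the group differences weigh heavily. For E(spl)m3-HLH they were Sbp2 (0.972), Damm (0.964) and Ipk2 (0.954), and for E(spl)malpha-BFM Vps29 (0.962), Polr2M (0.954) and Sbat (0.937). For E(spl)mbeta-HLH they were Chmp1 (0.951), Chchd3 (0.946) and Josd (0.932). E(spl)m7-HLH was most like MME1 (0.882), scu (0.806) and dysc (0.793), and E(spl)m6-BFM most like smp-30 (0.889), Pgant2 (0.881) and CAH1 (0.877).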

How the data were processed

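Biotin-labelled target was prepared from total RNA of female midguts by 3' amplification and read on 1 Affymetrix array per sample. The deposited values are log2 signals made by the authors with RMA, per the submitters' processing notes, whose software version is not given in the sources used here. Of 18952 probe sets, 183 controls were left out and 18769 tested. Symbols come from the platform annotation: 13647 tested probe sets had 1 symbol, 402 several and 4720 none. limma 3.58.1 in R 4.3.3 fitted 1 mean per group over 16 arrays (12 residual degrees of freedom) with default moderation, and each SE rests on all 16. The procedure was tested on simulated data.

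The members and the 17 gene lists (162 of 199 entries measured) were chosen with earlier results of these data known. All members were named, plus at most 4 called genes per list in the comparisons described, Delta, H, klu, esg and numb, and the 3 most similar genes per called member, leaving out bare CG or CR numbers. Tom, Ocho and E(spl)mdelta-HLH were also named, as relatives, and Kaz-m1, gro and mira after their values were seen. The lists' Dl is Delta in the annotation.

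The labels do not say what a replicate number stands for. Deviations from the group means of same-numbered arrays correlated at 0.104 to 0.785 in every comparison but RafGOF NotchIC with WT (0.0489 to 0.574). On that basis the numbers could pair the arrays in the other 5. The reported calls nevertheless come from the fit without the replicate block, which ignores any such pairing. Where the block changed the call of a member, its value is given. Differently numbered arrays correlated at up to 0.445 (RafGOF NotchIC with RafGOF NotchDN) and 0.441 (RafGOF NotchIC with RafGOF). Only in RafGOF NotchDN with RafGOF did all same-numbered arrays (from 0.494) exceed the others (up to 0.154). The pairing is thus uncertain, also for RafGOF NotchIC with WT, where the others reached 0.245. The arrays numbered 2 of all 4 groups, WT among them, did share the component described above. Alternatives were the replicate block, a fit of the 2 groups alone, a median shift, quantile normalization, a signal minimum of 5 (log2), limma-trend, leaving out each array, and leaving out the arrays numbered 2.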

Additional observations from a re-analysis of the deposited data

Results flagged for a closer look

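In WT midguts the array of replicate 1 had an E(spl)m5-HLH signal of 5.60 (log2), against 4.88 to 4.99 on the other 3 WT arrays. This array was marked because its gap to the nearest of the others was 0.842 of the group's whole range, above Dixon's 95% critical value for 4 samples. It was the only one of 40 pairs of a member and a group to be marked, and chance marks about 1 in 20.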

How the results depend on the processing

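Each comparison was refitted under 15 alternatives. The calls of E(spl)m3-HLH, E(spl)mbeta-HLH and E(spl)malpha-BFM against WT held in all of them, in each of the 3 Raf groups, and so did that of E(spl)mbeta-HLH between the Notch groups. Of 870 refitted member values, 844 kept their side of the threshold, 18 lost a call, 8 gained one and 0 reversed a called direction, while 39 that passed in neither fit changed sign. With the replicate block, 1 member passed in RafGOF NotchDN against RafGOF and 2 in RafGOF NotchIC against RafGOF, where 0 had passed, and it ended no member's call. The block also raised the share of all probe sets that passed, to 4.22% and 6.56% in these 2 comparisons, 18.6% between the Notch groups and 29.4%, 29.5% and 23.2% in RafGOF, RafGOF NotchDN and RafGOF NotchIC against WT. In RafGOF NotchIC against WT, the comparison without that basis for pairing, E(spl)m7-HLH passed with the block (limma adjusted p = 0.00367). Between RafGOF NotchIC and RafGOF NotchDN 1 member passed, in place of 2, in the fit of the 2 groups alone and without the arrays numbered 2. The fit of the 2 groups alone and the median shift each gave 3 members, in place of 4, in RafGOF against WT, and 4, in place of 3, in RafGOF NotchIC against WT. Leaving out 1 array gave 1 to 2 members between RafGOF NotchIC and RafGOF NotchDN. It gave 3 to 4 in RafGOF, in RafGOF NotchDN and in RafGOF NotchIC against WT, and 0 in each Notch group against RafGOF. The cause of these shifts was not tested. Under the signal minimum only 5 members were fitted, so E(spl)m6-BFM had no value. Of 177 called pairs of another named or listed gene and a comparison, 73 were lost in at least 1 alternative. The weak signal of the 6 dim members limits what their small differences can show.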
